A study of Mus musculus with 335 samples.

Results

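The Ventral cells are the 89 single cells, of 335 in the series, that were sorted as Ngfr+Pdgfrb- from the ventral part of the aorta-gonads-mesonephros (AGM). The embryos were wild-type mice at E11.5. All 89 cells with the label Ventral were taken, and each was given the same weight. The AGM is the strip of embryonic tissue around the dorsal aorta in which the first haematopoietic stem cells form. The other 3 groups came from the same tissue, age and genotype: 93 Dorsal cells, which carry the same Ngfr+Pdgfrb- phenotype, 88 Mesenchymal cells sorted as Pdgfrb+Ngfr- from the ventral side, and 65 cells sorted as EPCR+CD45+ and labelled HSC. Tissue was dissected, dissociated with collagenase and stained, and single cells went into lysis buffer for Smart-seq2, a full-length RNA-seq method. No treatment was applied, and the labels give no strain, embryo, litter or dissection. Each group is therefore 1 sample, all differences below are between these sets of cells, and no test can be made.

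Ngfr, the p75 neurotrophin receptor, marks the neural crest and many of its descendants. Trunk crest cells that migrate to the dorsal aorta become sympathetic neurons and, with nerve-associated Schwann cell precursors, the chromaffin cells of the adrenal medulla. The sympathoadrenal programme is set by the transcription factors that include Hand2 and Gata3 and ends in the synthesis of noradrenaline by the enzymes Th and Dbh. Sox10 is the factor that maintains the crest and glial precursor state and is lost as cells become neurons. Pdgfrb marks perivascular and other mesenchymal cells.

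Totals of the Ventral cells ran from 149501 to 20481041 counts with a median of 574689, against medians of 1033890 in Dorsal, 505916 in Mesenchymal and 943772 in HSC. A median of 7863 genes was detected per Ventral cell, and mitochondrially encoded genes took a median of 5.47% of counts. The deepest cell, Ventral 41, held 18.5% of the counts of its pool and the next deepest 7.89%. A level is therefore the mean over cells of counts per 1000000 (CPM), with no correction for gene length, so levels are compared within a gene. To count the cells with a gene, every cell was reduced by random draws to 310000 counts, and the gene needed at least 5. Ventral had 80 cells at or above that depth, Dorsal 92, Mesenchymal 69 and HSC 64. Shares have exact Clopper-Pearson 95% limits, which cover counting error only.

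Ngfr, Tlx2 and Tubb3, the 3 markers given for the group, were each found in about the same share of Ventral cells. Of the 3, only Ngfr was used in the sort. Ngfr (11:95568818-95587735, minus strand, build GRCm38) ran from 0 to 689 CPM over the 89 cells with a median of 17.2, and 16 cells had no count. It was present in 43 of 80 Ventral cells, 53.75% (42.2% to 65%), in 74 of 92 Dorsal cells, 80.4% (70.9% to 88%), and in 8 of 69 Mesenchymal cells. The values of both Ngfr+ groups overlapped widely, but the Dorsal median was 251.7 CPM. Of 64 HSC cells 0 had Ngfr at this depth, with an exact upper limit of 5.60%.

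Tlx2 (6:83068324-83070293, minus strand), a homeobox factor of autonomic neuron precursors, had a median of 58.8 and a highest value of 712.5 CPM and was present in 42 of 80 Ventral cells, 52.5% (41% to 63.8%). Dorsal had it in 40 of 92 cells, 43.5%, with a median of 2.3 CPM, and the limits of the Ventral and Dorsal shares overlap. No count of Tlx2 fell in any of the 88 Mesenchymal or 65 HSC cells. Tubb3 (8:123411424-123422015, plus strand), the neuronal beta-tubulin, had a median of 23.5 and a highest value of 3185 CPM and was present in 44 of 80 Ventral cells, 55% (43.5% to 66.1%), and in 41 of 92 Dorsal cells. The share of Tubb3 depended on the thinning, since 65 of all 89 Ventral cells had at least 5 counts before it.

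The crest factor Sox10 (15:79154908-79165240, minus strand) separated both Ngfr+ groups further. It had a median of 9.0 and a highest value of 802 CPM in Ventral and was present in 35 of 80 cells, 43.75% (32.7% to 55.3%). In Dorsal it was present in 79 of 92 cells, 85.9% (77.1% to 92.3%), with a median of 297.2 CPM, and in no Dorsal cell was it at 0. Dbh (2:27165233-27183200, plus strand), dopamine beta-hydroxylase, reached 7070 CPM in 1 Ventral cell and had a median of 8.15; 30 of 80 Ventral and 42 of 92 Dorsal cells had it. Th, tyrosine hydroxylase, was present in 15 of 80 Ventral and 28 of 92 Dorsal cells. Pdgfrb, against which the cells were sorted, was present in 5 of 80 Ventral, 4 of 92 Dorsal and 53 of 69 Mesenchymal cells.

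**Figure D1:**
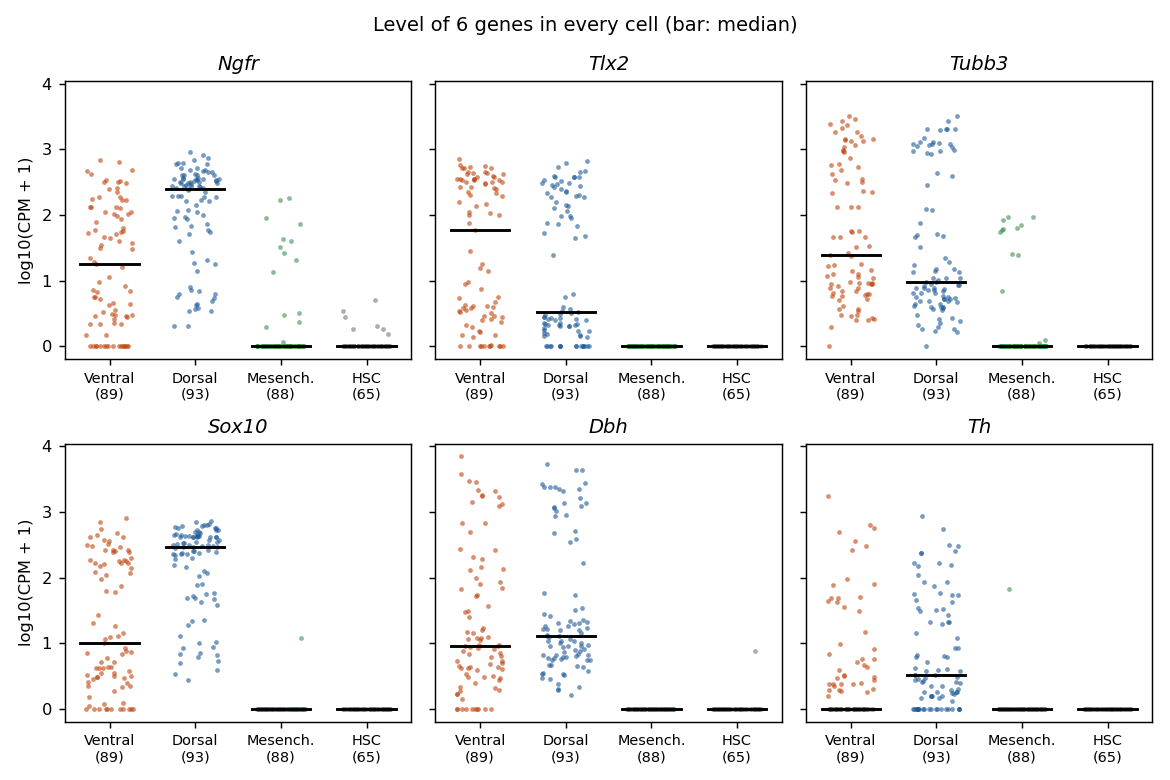
Level of 6 genes in each cell, as log10(CPM + 1), in the 4 groups; each point is 1 cell and the bar is the median. Ventral and Dorsal overlap for each gene, Sox10 and Ngfr have their higher medians in Dorsal, and Tlx2 has its higher median in Ventral (58.8 against 2.3 CPM).

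The label also names these cells sympathoadrenal, and the data bear this out for some of them. The cells were scored with 18 sets of cell type markers, a set being held when at least 3 of its markers had at least 5 thinned counts. Of 80 Ventral cells, 42 held the sympathoadrenal set, 52.5% (41% to 63.8%), 42 the neuron set, and 37 the crest and Schwann precursor set, 46.25% (35% to 57.8%). At least 1 of these 3 crest-derived sets was held by 52 cells, 65% (53.5% to 75.3%), and all 3 by 24. Of the 52, 2 held only the neuron set, with 0 crest markers and 1 sympathoadrenal marker each. Dorsal held the sympathoadrenal set in 47 of 92 cells, 51.1%, and the crest and Schwann precursor set in 72, 78.3% (68.4% to 86.2%). At least 1 of the 3 was held by 84 Dorsal cells, 91.3% (83.6% to 96.2%). The limits of that share and of the Ventral share cover counting error within 1 pool each, not the spread between embryos. Another 17 Ventral cells, 21.25% (12.9% to 31.8%), held only other sets and 11 held none of the 18, against 7 and 1 in Dorsal. The name Ventral is therefore used here, not sympathoadrenal. Erythroid, mesonephric, sensory neuron, spinal cord and germ cell markers had fewer than 3 measured members, so these sets could not be held.

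By the sets they held, the 80 Ventral cells fell into 6 classes. A first class of 29 cells, 36.25% (25.8% to 47.8%), held both crest and sympathoadrenal markers; 8 cells held the crest set without the sympathoadrenal, and 13, 16.25% (8.95% to 26.2%), the reverse. Macrophage markers without a crest-derived set were held by 8 cells, 10% (4.42% to 18.8%), mesenchyme markers without one by another 8, and 14 cells fell outside these classes. The same classes held 35, 37, 12, 7, 0 and 1 of the 92 Dorsal cells, so crest cells without the sympathoadrenal set made up 40.2% (30.1% to 51%) of Dorsal and 10% of Ventral. Of the 69 Mesenchymal cells, 67 fell into the mesenchyme class. A class is a range of marker counts and not a type: 4 Ventral cells had exactly 2 sympathoadrenal markers and 13 exactly 3, and with all counts in place of thinned ones the first 3 classes held 38, 4 and 12 of 89 cells.

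**Figure D2:**
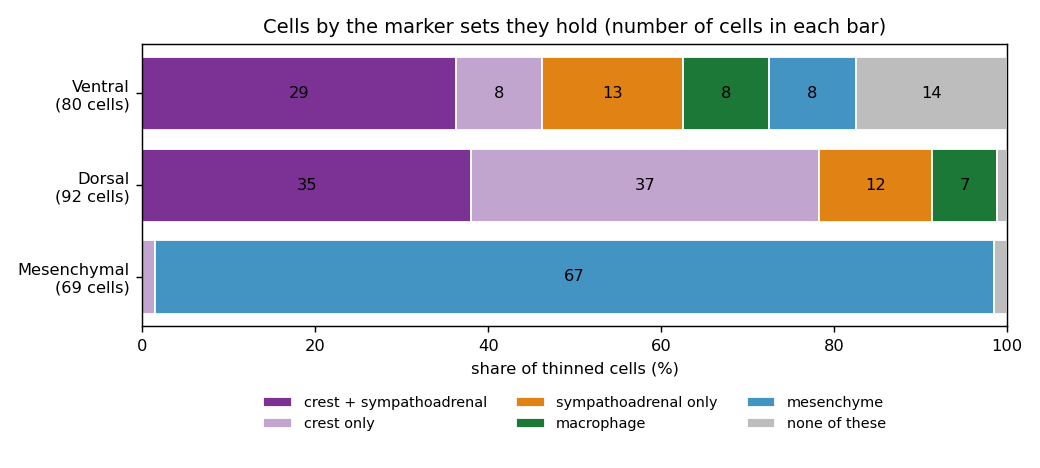
Share of thinned cells in each class of marker sets, stacked to 100%, for Ventral (80 cells), Dorsal (92) and Mesenchymal (69). Crest cells without sympathoadrenal markers take 10% of Ventral and 40.2% of Dorsal, and the macrophage, mesenchyme and remaining classes together take more of Ventral.

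Levels of single genes differed between the crest-derived classes, by construction for the markers of the sets. Sox10, which helped to define the classes, had a median of 361 CPM in the 8 crest cells without sympathoadrenal markers, 181 in the 29 with both sets and 2.2 in the 13 with sympathoadrenal markers alone. Ednrb, the endothelin receptor of migrating crest, was no marker of the sets, was chosen like the next 2 genes after its values were seen, and had medians of 1346, 73.3 and 2.0 CPM in the same order. Postn, a matrix protein of Schwann cell precursors, had medians of 908, 11.1 and 0 CPM. Both genes were high in every crest-only cell, at 537 CPM or more for Ednrb and 164 or more for Postn. Isl1, a homeobox factor of sympathetic neurons that was also outside the sets, was present in 0 of 8, 13 of 29 and 13 of 13 cells, with a median of 391.6 CPM in the last.

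Ngfr followed the precursor end: its median was 336.7 CPM in the 8 crest-only cells, 37.05 in the 29 with both sets and 14.9 in the 13 sympathoadrenal-only cells. Tlx2, a member of the sympathoadrenal set, and Tubb3 followed the neuronal end, with medians of 1.0, 268 and 428 CPM for Tlx2 and of 13.5, 134 and 1387 CPM for Tubb3. Dbh was present in 0 of 8, 15 of 29 and 12 of 13 cells and Th in 0, 8 and 7; both also count in the sympathoadrenal set. Of the 42 Ventral cells with Tlx2, 38 also had Tubb3, and of the 35 with Sox10, 27 had Tubb3 and 24 had Ngfr.

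**Figure D3:**
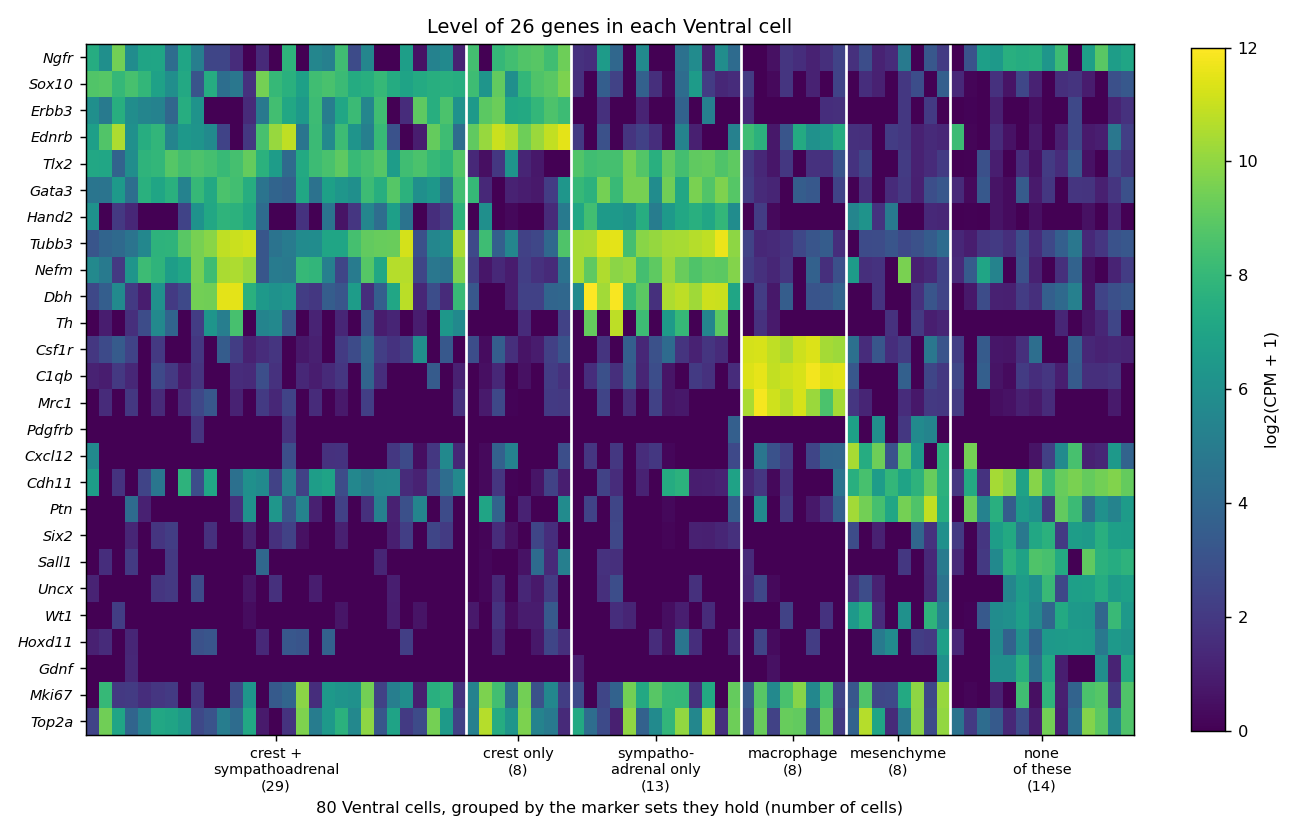
Level of 26 genes (rows), as log2(CPM + 1) in colour with values above 12 drawn as 12, in each of the 80 Ventral cells (columns) grouped by the marker sets they held. Sox10 and Ednrb fade and Tubb3, Dbh and Th appear from crest-only to sympathoadrenal-only cells, Csf1r and C1qb fill the 8 macrophage-marker cells, and Six2, Uncx and Gdnf fill most of the last block.

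Across 88 Ventral cells, without the deepest, genes whose levels ranked most like Sox10 included Erbb3 (Spearman 0.76), the neuregulin receptor of glial precursors, and Cdh19 (0.74), a cadherin of Schwann cell precursors. For Tubb3 they were Gata3 (0.80), Dpysl3 (0.79), a growth cone protein, Dll3 (0.78), a Notch ligand, and Tlx2 (0.78). Sox10 and Tubb3 ranked together at 0.28. These are descriptions across cells of 1 pool, which share their libraries, and total counts per cell ranked with Sox10 at 0.06 and with Tubb3 at -0.07.

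The 8 cells with macrophage markers stood apart in thinned counts. Of 80 Ventral cells 63 had none of the 8 macrophage markers, 9 had 1, none had 2 or 3, and 8 had 4 or more. With all counts in place of thinned ones, 12 of 89 Ventral cells held the set, 2 of them with a crest-derived set. Csf1r and C1qb are markers of the set, so they are high in the 8 cells by construction. Csf1r, the receptor for macrophage colony-stimulating factor, ran from 1218 to 2636 CPM in the 8 cells and reached at most 60.03 in the others. C1qb, a complement subunit, ran from 1900.5 to 3491 CPM in them and reached at most 13.4 elsewhere among the 80. Apoe, a lipid carrier that macrophages make, had a median of 7167 CPM in them. Ptprc, which encodes CD45, was present in all 8, and all 8 also held the blood progenitor set, which includes it. None had Ngfr at this depth, and their highest Ngfr value was 4.3 CPM. Igf1, a growth factor, was present in all 8 with a median of 281 CPM. Dorsal had a like set: 8 of 92 cells held the macrophage set, 8.70% (3.83% to 16.4%), 1 of them with a crest-derived set.

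The 8 cells with mesenchyme markers had Pdgfra, a receptor of mesenchymal cells, in 6, Pdgfrb in 4 and Ngfr in 1. Ptn, the growth factor pleiotrophin, was present in all 8 at 137 to 1929 CPM, and Unc5c, a netrin receptor, in all 8 at 22.9 to 801 CPM. Cxcl12, the chemokine that retains haematopoietic stem cells, was present in 6 of 8 with a median of 184 CPM, against a mean of 1199 CPM in Mesenchymal. Snai2, a factor of crest emigration that mesenchyme also uses, was present in 7 of 8. Isl1 was present in 4 of 8. Another cell held all 8 endothelial markers, had no count of Ngfr and was the only Ventral cell with the endothelial set.

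Low counts crossed these classes within the Ventral and Dorsal pools. Dbh was at 0 in 10 of 89 Ventral cells, in no Dorsal cell, and in all 88 Mesenchymal cells. C1qb had no count in 23 of 89 Ventral cells, 23 of 93 Dorsal cells and 88 of 88 Mesenchymal cells, though 8 of 80 Ventral cells had 5 thinned counts. In the macrophage-marker, mesenchyme-marker and remaining Ventral cells Tlx2 reached 7.8, 4.6 and 8.6 CPM and never 5 thinned counts. Dbh had at least 5 thinned counts in 3 of these cells, at up to 36.4 CPM. Csf1r had them in 14 of 80 Ventral cells and Laptm5, a lysosomal protein of leukocytes, in 21. Fcer1g, a signalling subunit of immune receptors, had them in 44 of 80 Ventral cells, 36 of them outside the 8 macrophage-marker cells, at medians of 8.6 to 40.5 CPM by class against 1128.5 in those 8. Cells of a group were sequenced in 1 pool, and any movement of reads between its wells was not tested.

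A further set of Ventral cells came up through the genes highest in the group. By the rule for such genes 71 of 10016 were at least 2-fold above all 3 other groups, and the first 12 were Grin2b, Six2, Hoxb1, Espn, Rspo1, Glb1l2, Uncx, Rab7b, Amph, Sall1, Sobp and Crym. These were chosen by their values, so their levels are a description. Six2 (17:85684277-85688274, minus strand), a factor that keeps nephron progenitors undifferentiated in the embryonic kidney, averaged 20.2 CPM in Ventral, 2.3 in Dorsal, 0.64 in Mesenchymal and 0.38 in HSC, and was present in 11 Ventral cells and 1 Dorsal cell. Uncx, a homeobox factor of somites and kidney, averaged 15.5 CPM in Ventral and 2.2 in Dorsal. Sall1, a zinc finger factor that kidney development requires, averaged 34.4 CPM in Ventral, 5.7 in Dorsal and 8.2 in Mesenchymal.

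These genes lay in the same cells. At least 3 of the 12 were present in 13 of 80 Ventral cells, 16.25% (8.95% to 26.2%), in 1 of 92 Dorsal cells and in no Mesenchymal or HSC cell; all other Ventral cells had at most 2. Of the 13, 11 were among the 14 cells outside the marker classes and 2 among the mesenchyme-marker cells. The 2 cells that held only the neuron set were among these 11. They are therefore included wherever cells with a crest-derived set are compared below. Six2 was present in 11 of the 13, with a median of 103 CPM, and in 0 of the other 67 Ventral cells. Uncx was present in 10 of 13 and 0 of 67, Hoxb1 in 9 and 0, Espn in 10 and 0, Rspo1, a Wnt agonist, in 8 and 0, and Sall1 in 11 and 2. Grin2b, whose mean of 47.6 CPM was 13.6 without the deepest cell, Glb1l2 and Rab7b did not follow them and were present in 1, 3 and 0 of the 13.

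A second list of 18 genes known from kidney progenitors was written after these values were seen, 12 of its 16 measured genes not being among the first 12. Of the 13 cells, 12 had 7 to 11 of these 12 further genes, while the other Ventral cells had at most 3, Mesenchymal cells at most 5 and HSC cells at most 2. In Dorsal 1 cell had 9. Wt1, a zinc finger factor of kidney and coelomic epithelium, was present in 12 of 13 cells and 3 of 67, Itga8, the integrin of the kidney mesenchyme, in 12 and 5, and Hoxd11 in 12 and 4. Gdnf, the ligand that draws out the ureteric bud, was present in 8 and 0 and Pax2 in 7 and 0. Cited1, a gene of nephron progenitors, was present in 4 of the 13. None of the 13 had Tlx2 or Sox10 and 2 had Tubb3, while Ngfr was present in 10, at 77.96 to 488 CPM. The 12 cells made up 15% of the 80 (8% to 24.7%). The 13 had totals of 335453 to 3642001 counts and carried 10 of the 12 i7 and 6 of the 8 i5 indices, and 4 of them shared an index with the deepest cell. No cell type is named for them, because the list was chosen with their values known and only 2 mesonephric markers of the fixed sets were measured.

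**Figure D4:**
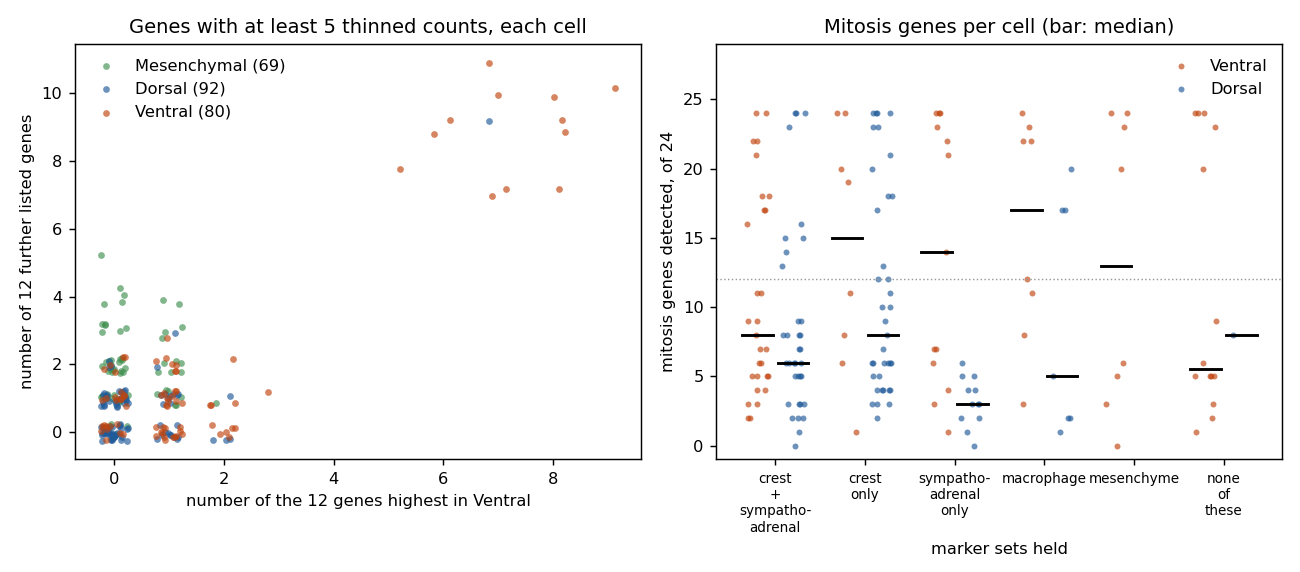
Left: number of the 12 genes highest in Ventral (x) against number of the 12 further listed genes (y) present in each cell; 12 Ventral cells and 1 Dorsal cell lie apart from the rest. Right: number of 24 mitosis genes present in each cell by class, Ventral and Dorsal, with a dotted line at 12 genes; no Dorsal cell of the sympathoadrenal-only class reaches it, and 7 of 13 Ventral cells do.

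Against Dorsal, 731 of 13152 genes (5.56%) were higher in Ventral by 2-fold or more, and 435 (3.31%) were lower by as much, on the scale log2 of the ratio of (mean CPM + 1). The median over all these genes was 0.02, or -0.14 with summed counts. The split turned with the scale: means of the deposited log2 values gave 147 higher and 667 lower, means of log2(CPM + 1) 139 and 619, and summed counts 1092 and 1330. A mean over cells is moved by genes that are high in a few cells, and a mean of logs by genes present in many. Fewer cells with a gene and less RNA per cell are both part of such a mean, and the cell counts are given beside it.

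Crest and Schwann precursor genes were lower in Ventral. Of 24 measured, 14 were at least 2-fold lower and 2 higher, with a median log2 difference of -1.22, against 3.31% and 5.56% of all genes. Foxd3, a factor of the crest stem cell state, differed by -1.87 and was present in 10 and 33 cells. Egfl8, a secreted protein of glial precursors, differed by -2.38 (20.8 and 113 CPM), Ednrb by -1.33 (251 and 633 CPM) and Sox10 by -1.31. Erbb3 (-0.85) stayed short of 2-fold. Among the 52 Ventral and 84 Dorsal cells that held a crest-derived set, a comparison added after seeing the data, 8 of the 24 were lower and 1 higher, with a median of -0.77, against 4.08% of all genes in each direction. Of the 2 higher genes, Snai2 (2.26) was present in 15 of 80 Ventral cells, 7 of them among the 8 mesenchyme-marker cells, and Pmp22, a myelin gene that mesenchyme also expresses, differed by 1.27.

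Over all cells, few genes of the sympathoadrenal programme passed 2-fold, where 5.56% of all genes were higher and 3.31% lower. Of 15 transcription factors 2 were higher, Hand1 (log2 difference 1.25, 15 and 10 cells) and Gata2 (1.12, 27 and 23 cells), and none lower, with a median of 0.18. Of 12 catecholamine genes none passed 2-fold in either direction, with a median of -0.16, and Dbh averaged 386 CPM in Ventral and 506.04 in Dorsal. Of 19 genes of the neuronal cytoskeleton and RNA binding 1 was higher, the intermediate filament gene Prph (1.49, 6 and 7 cells), with a median of 0.02. The 17 secretory granule and neuropeptide genes gave 2 higher and 1 lower, and the 15 cholinergic receptor and channel genes 2 and 1. These values are means over all 89 and 93 cells, although fewer Ventral cells held a crest-derived set. Among the 52 and 84 cells that held one, 5 of the 15 transcription factors were higher and none lower, with a median of 0.45: Hand1 (1.74), Tbx20 (1.59; 202 and 66.6 CPM; 34 and 30 cells), Gata2 (1.37), Tlx2 (1.17; 266 and 118 CPM) and Eya1 (1.02). Some of these genes are markers by which the cells were chosen. Eya1 is on the second list above, and the 52 cells include 2 of the 13 cells described there. In the same cells 4.08% of all genes were higher and 4.08% lower. The granule genes gave 4 higher and 1 lower there, the cholinergic genes 3 and 1, and the catecholamine genes none in either direction. Most of these higher genes were in few Ventral and Dorsal cells: Sst in 4 and 0, Cartpt in 3 and 0, Penk in 3 and 2, Scn3a in 4 and 4, Slc18a3 in 3 and 3. Snap25 was in 13 and 15 and Htr3a in 18 and 13.

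Mitosis genes were higher in Ventral in 15 of 24 cases and lower in none, against 5.56% and 3.31% of all genes, with a median of 1.07. Mki67, the proliferation antigen, averaged 187 CPM in Ventral and 68.4 in Dorsal, a log2 difference of 1.44, and was present in 40 of 80 and 31 of 92 cells. Kif11, the spindle motor, differed by 1.39 and Ube2c, which drives the exit from mitosis, by 1.42. At least 12 of the 24 genes were present in 35 of 80 Ventral cells, 43.75% (32.7% to 55.3%), and in 26 of 92 Dorsal cells, 28.3% (19.4% to 38.6%), and these limits overlap. Among sympathoadrenal-only cells 7 of 13 Ventral, 53.8% (25.1% to 80.8%), and 0 of 12 Dorsal cells (up to 26.5%) had 12 or more. These limits overlap, and they cover counting error within 1 pool per group, not the spread between embryos. In the class with both sets it was 10 of 29 and 9 of 35, and over all cells with a crest-derived set 21 of 52, 40.4% (27% to 54.9%), and 23 of 84, 27.4% (18.2% to 38.2%). Without the macrophage-marker cells of both groups 10 of the 24 genes were higher, with a median of 0.94. Of 20 S phase genes none passed 2-fold, with a median of 0.16, and 10 or more of the 20 were present in 75 of 80 Ventral and 80 of 92 Dorsal cells. Of 12 genes for cyclin-dependent kinase inhibitors and D cyclins none passed.

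Mesenchymal transcription factors were higher in Ventral in 11 of 18 cases and lower in none, against 5.56% and 3.31% of all genes, with a median of 1.49. Meox1 (3.95), a somite factor, and Foxc2 (3.50), a factor of several mesoderm types, lay mostly in the 13 cells described above, in 11 of 13 cells each. Gata6 averaged 9.35 CPM with no count in Dorsal and was present in 4 of the 8 mesenchyme-marker cells. With means of the deposited log2 values 3 of the 18 were higher. Among the cells with a crest-derived set 6 were higher and 1 lower, with a median of 0.15. The share of all genes in those cells was 4.08% in each direction. The Ventral cells with a crest-derived set include 2 of the 13. Among the 31 measured Hox genes, 7 were higher and 1 lower over all cells, against 5.56% and 3.31% of all genes. The higher genes were Hoxd11 (3.47), Hoxb1 (2.61), Hoxd10 (2.48), Hoxa11 (2.28), Hoxc10 (2.19), Hoxa10 (1.46) and Hoxc5 (1.37), and Hoxc10 was present in 12 of the 13 cells, 15 of the other 67 and 10 of 92 Dorsal cells. The median over the 31 was 0.02.

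Of 26 measured ligands that act on haematopoietic stem cells 7 were higher than in Dorsal and 2 lower, with a median of 0.55. The shares of all genes were 5.56% higher and 3.31% lower, and 4.08% each way among the cells with a crest-derived set. Among the cells with a crest-derived set 2 were higher, Ptn (1.77) and Bmp4 (1.22; 1.52 and 0.08 CPM; 3 and 0 cells), and 6 lower, with a median of -0.08. The lower included Wnt5a (-2.44; 2.48 and 17.9 CPM) and Vegfa (-1.46; 2.33 and 8.13 CPM). The others, Angpt1, Fgf2, Nrg1 and Edn3, averaged at most 0.34 CPM in Ventral and 2.09 in Dorsal, in 3 cells or fewer of either group. Deposited log2 values gave 4 higher and 2 lower, with a median of 0.04. Ptn differed by 3.58 (96.5 and 7.15 CPM; 29 and 11 cells), Bmp4, a morphogen of the ventral aorta, by 3.42 (10.6 and 0.08 CPM; 10 and 0 cells) and Cxcl12 by 2.91 (53.1 and 6.20 CPM; 17 and 10 cells). Igf2 differed by 1.48 (153 and 54.2 CPM) and was present in 60 of 80 and 67 of 92 cells, the most widely found of the 7. Igf1 (1.18) and Angpt1 (1.21) were also higher. Il1b (3.54) was present in 3 Ventral cells. Wnt5a (-1.69; 5 and 20 cells) and Nrg1 (-1.24; 1 and 3 cells) were lower. Against Mesenchymal, a comparison that shares the Ventral cells, 4 of 25 ligands were higher in Ventral by 2-fold or more and 11 lower, against 16.4% and 7.68% of all genes. The share of higher ligands, 16%, was that of all genes. Among the lower were Cxcl12 (-4.47), Bmp4 (-3.72), Ptn (-3.25) and Igf2 (-2.53; 153 and 892 CPM). Bmp7, a BMP ligand, was higher in Ventral (2.74; 29.98 and 3.64 CPM), and Dll1, a Notch ligand, averaged 11.4 CPM in Ventral with no count in Mesenchymal.

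Receptors for growth and guidance cues split. Of 24 measured, 6 were at least 2-fold higher than in Dorsal and 5 lower. For this and the other lists of this paragraph the shares of all genes were 5.56% and 3.31%. Unc5c (2.67; 112 and 16.8 CPM; 29 and 12 cells) and Epha4 (2.92; 13 and 3 cells), both receptors that repel axons, were higher, as were Robo1 (1.08), Plxna2 (1.18), Kit (1.04; 38 and 22 cells) and Met (2.32 and 0.02 CPM; 5 and 0 cells). All 5 cells with Met were among the 13 cells described above. Epha4 was present in 8 of the 13 and 5 of the other 67, and Unc5c in 11 and 18. Kit was present in 2 of the 13 and 36 of the 67. Among the 52 Ventral cells with a crest-derived set, 10 had Unc5c and 3 had Epha4. Ngfr (-1.45), Ednrb, Gfra3 (-1.62), Erbb2 (-1.20) and Dcc (-1.44; 1 and 6 cells) were lower. Among macrophage genes 5 of 26 were higher and none lower, with a median of 0.52, and without the macrophage-marker cells none was in either direction, with a median of -0.03. Of 23 BMP and TGF-beta genes 6 were higher, among them Bmper (3.47; 10 and 2 cells), a BMP-binding protein, and none lower. Bmper was present in 8 of the 13 cells and 2 of the other 67.

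By the rule for single genes, 114 were higher and 157 lower than in Dorsal in enough cells and without the deepest cell and those sharing an index with it. The first of the higher genes was Adh1, an alcohol dehydrogenase, with a mean of 51.3 CPM, 20 of 80 Ventral cells and no count in Dorsal. The deepest cell held 96.5% of its Ventral counts and the mean without that cell was 23.7 CPM. Ptn, Unc5c and Cdh11, a mesenchymal cadherin, followed. Cdh11 differed by 2.51 (135 and 22.8 CPM; 39 and 18 cells) and was present in all 13 of the cells with Six2-type genes and in 26 of the other 67. Des, the muscle intermediate filament (2.42), and Tgfbi, a matrix protein (2.39, 31 and 9 cells), were also among the 12. So were Ramp2, a receptor partner for adrenomedullin (2.22), Sfrp2, a secreted Wnt binder (2.09), Glb1l2, St3gal6, Hoxc10 and Car14. Des was present in 12 of those 13 cells and 9 of the other 67, Ramp2 in 12 and 13, and Ptn in 12 and 17. Tgfbi was in 10 and 21, Sfrp2 in 10 and 13, and St3gal6 and Car14 in 8 and 15 each. Glb1l2 was in 3 and 20 and Adh1 in 6 and 14. The lower genes included Afap1l2 (-2.77; 11 and 46 cells), Art3 (-2.55), Vgll3 (-2.39), Dct (-2.38; 3 and 23 cells), a melanin enzyme of melanoblasts, Alcam (-2.19; 23 and 59 cells), a cell adhesion molecule, and Slc35f1 (-2.14; 10 and 52 cells).

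**Figure D5:**
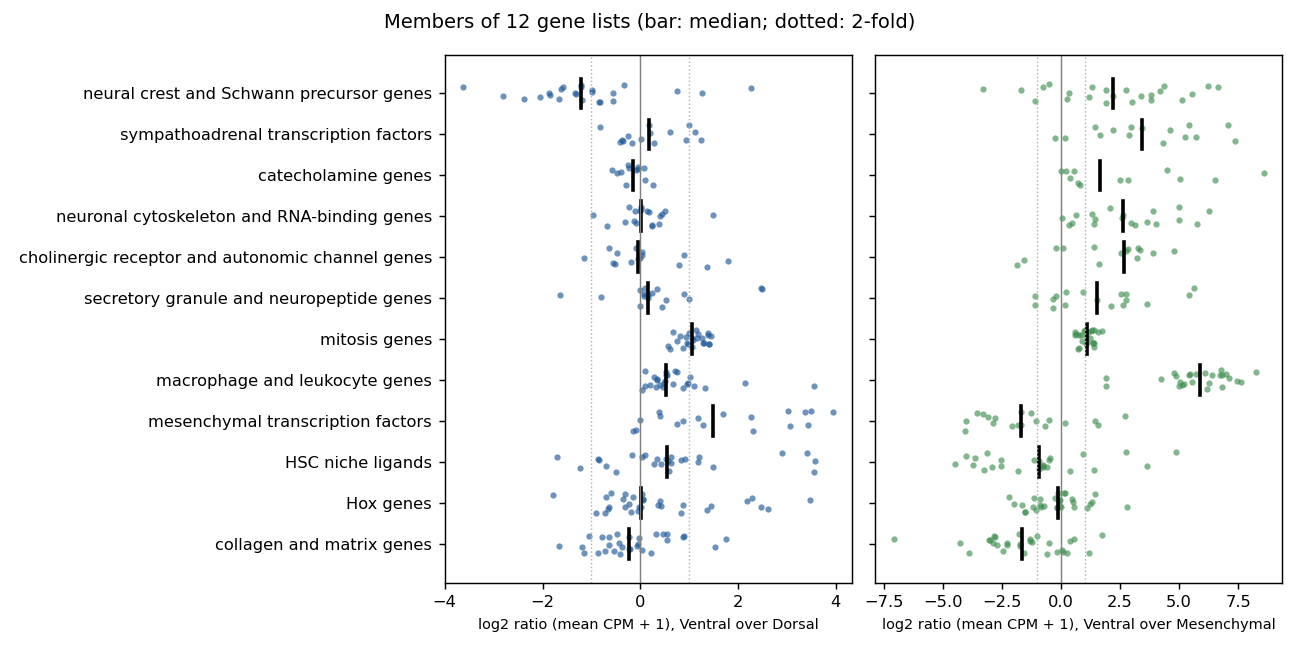
Log2 ratio of (mean CPM + 1) for each measured member of 12 gene lists, Ventral over Dorsal (left) and Ventral over Mesenchymal (right); each point is a gene, the bar the median, and the dotted lines 2-fold. Against Dorsal the crest list lies low (median -1.22) and mitosis genes and mesenchymal factors lie high (1.07 and 1.49).

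Against Mesenchymal, 2147 of 13065 genes (16.4%) were higher in Ventral by 2-fold or more and 1003 (7.68%) lower, with a median over all genes of 0.22, or 0.09 with summed counts. Summed counts gave 2239 and 1679, and means of log2(CPM + 1) 2335 and 638. Of the sympathoadrenal transcription factors 13 of 15 were higher and none lower, with a median of 3.42. Tlx2, Dbh and Erbb3 had no count in Mesenchymal, so no fold is given. Nell2, a secreted neuronal protein, averaged 126 and 0.08 CPM (6.88; 50 of 80 Ventral cells and no Mesenchymal cell), Elavl4, a neuronal RNA-binding protein, 207 and 1.73 (6.26; 49 and 4 cells), Cck, a neuropeptide gene, 156 and 0.88 (6.39) and Sox10 113 and 0.13 (6.66). Of 19 neuronal cytoskeleton and RNA-binding genes 15 were higher, and of 23 crest genes 16 were higher and 3 lower. All 26 macrophage genes were higher, with a median of 5.90, and without the macrophage-marker cells 9 were, with a median of 0.80. Fcer1g averaged 206 and 0.19 CPM, and Laptm5 113 CPM with no count in Mesenchymal.

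Collagen and matrix genes were among those lower than in Mesenchymal. Of 30 collagen and matrix genes 20 were lower and 2 higher, with a median of -1.64. The shares of all genes were 7.68% lower and 16.4% higher. Fbln5, an elastic fibre protein, averaged 0.25 CPM in Ventral and 167 in Mesenchymal (-7.07; 1 and 37 cells). Col1a1 averaged 28.5 and 569 CPM (-4.28) and Fn1 104 and 757 CPM (-2.85). The smooth muscle gene Acta2 averaged 32.2 and 1312 CPM (-5.31; 7 and 31 cells) and the pericyte gene Rgs5 8.76 and 319 CPM (-5.03). Ntrk2, the receptor for brain-derived neurotrophic factor, averaged 2.81 and 181 CPM (-5.58; 4 and 46 cells), and Ddr2, a collagen receptor, 3.08 and 193 CPM (-5.58; 1 and 62 cells). Cxcl12 was present in 17 of 80 Ventral and all 69 Mesenchymal cells. Of 19 mesenchymal transcription factors 13 were lower and 3 higher, with a median of -1.70. The share of higher factors was near the 16.4% of all genes.

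The deepest cell, Ventral 41, held none of the 18 sets. Its leading genes were Grin2b, a glutamate receptor subunit, at 3041 CPM and Adh1 at 2479 CPM, and it held 98.7% and 96.5% of the Ventral counts of these genes. It also had Mc2r, the receptor for adrenocorticotropic hormone, at 497 CPM and Nr5a1, the factor that turns on steroid synthesis, at 486. The steroid enzymes Hsd3b1 and Cyp11a1 were at 450 and 281 CPM. Nr5a1 and Cyp11a1 were the only 2 present of the 7 measured coelomic, gonadal and adrenocortical markers. Of the others, Star and Wt1 were at 0.08 and 0.07 CPM, and Gata4, Lhx9 and Upk3b had no count in this cell. Prrx1, a mesenchymal factor, was at 563 CPM in it, 91.2% of the Ventral counts. Tlx2, Tubb3 and Sox10 were below 1 CPM in it. For 752 of 12402 genes (6.06%) it held more of the Ventral counts than all other cells together, and summed counts put 469 genes at least 2-fold higher and 258 lower in Ventral than equal weights did. Adh1 had at least 5 counts in 16 of the 17 index-sharing Ventral cells and in 6 of the 71 without a shared index; the part of shared indices in these values was not tested. Weighted equally, 721 genes were higher and 434 lower than in Dorsal without this cell.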

How the data were processed

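Single cells were sorted from dissected AGM tissue and sequenced by Smart-seq2, 1 library per cell. The authors deposited estimated counts for each gene from kallisto 0.43.1; the submitters' processing notes name it with build GRCm38, and annotation and filters are not given in the sources used here. A second deposited table is on the log2 scale: each count was divided by its cell's size factor (0.098 to 19.6) and 1 was added, as both tables show. It served 1 alternative. Of 14109 entries, 13448 carry a gene symbol; the other 661, with 2.96% of counts, were left out of totals. Symbols were matched to GENCODE M21 on GRCm38 (13038 matched).

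CPM was computed here per cell and averaged over cells with equal weight. Ratios are log2 of (mean CPM + 1), for genes reaching 100 counts in both groups together. Low values rest on few reads, and log ratios understate the change of low genes. Named genes are the 12 largest ratios per direction among genes with 5 thinned counts in 25% of the higher group's cells that kept a 2-fold difference without the deepest Ventral cell and without cells sharing an index with it, and the 12 highest above all other groups in 10% of cells; sort genes, mitochondrial genes, pseudogenes and unnamed loci were left out. From the 22 gene lists, members past 2-fold or known for the list were named, and other genes (class genes, those of the deepest cell) were chosen after their values were seen. Spearman correlations used CPM. The ratios, but not the shares, were checked on simulated data, drawn with the same spread between cells for each gene.

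Because the labels name no embryo, neither tests nor standard errors were computed. The cells, marker sets, lists and rules were chosen with earlier results of these data known. Chga and some other listed genes are not analysed here, a few named genes are left unreported, and no doublet caller was run on singly sorted cells. The largest correlation between 2 Ventral cells was 0.715, so no cell was counted as a copy. Python 3.11.15, numpy 2.4.6, pandas 2.3.3, scipy 1.17.1 and matplotlib 3.10.9 were used. Alternatives changed the weighting, the filter, the pseudocount, the cells, the thinning and the number of markers.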

Additional observations from a re-analysis of the deposited data

How the results depend on the processing

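No paired analysis was possible because the cells carry no animal, plate or day that links groups and no test was made. Leaving out the deepest Ventral cell, the cells sharing an index with it, the 5% deepest cells of each group, the macrophage-marker cells (chosen after seeing the data) or Dock10 and Cep97, or using no filter, kept the 4 counts of genes within 1.5 times. A pseudocount of 10 gave 125 higher and 86 lower than Dorsal and 716 and 420 than Mesenchymal. A filter of 1000 counts gave 373 and 251 against Dorsal and 1316 higher than Mesenchymal. Deposited log2 values gave 147 and 667 against Dorsal, summed counts 1330 lower than Dorsal and 1679 lower than Mesenchymal, and means of log2(CPM + 1) 139 higher than Dorsal and 638 lower than Mesenchymal. The log2 differences of the 48 gene ratios named by the rule kept their direction with summed counts and with deposited log2 values. Without the deepest cell and without the index-sharing cells they kept it by the rule that chose them. With deposited log2 values Ramp2 (0.88) and Sfrp2 (0.86) were under 2-fold.

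At a minimum of 1 count the shares of Ventral cells rose to 73.75% for Ngfr, 75% for Tlx2, 91.25% for Tubb3, 71.25% for Sox10, 72.5% for the sympathoadrenal set, 60% for the crest and Schwann precursor set, 47.5% for the macrophage set and 22.5% for the mesenchyme set; at 10 counts all 9 shares stayed within their limits. Without thinning Tubb3 was in 73.03% of cells. With 4 markers the sympathoadrenal set was held by 36.25%, and with 2 the mesenchyme set by 21.25%. Counts of list members moved by over 1.5 times in 42 of 88 cases with deposited log2 values, 24 with summed counts, 11 without the macrophage-marker cells, 19 among cells with a crest-derived set (Dorsal only) and 1 without the deepest cell. With 89 cells in 1 pool and a median of 574689 counts, the exact limits of a share are wide (42.2% to 65% for Ngfr), and a gene with fewer than 5 counts in 310000 was not detectable in a cell.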
